A study of Mus musculus with 64 samples.

Results

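The genes described were 10 of the 16913 in the count table: Fhl1, Fhl2, Ankrd1, Ankrd23, Csrp3, Xirp1, Xirp2, Nrap, Ldb3 and Synpo2l. They were chosen by name as genes of mechanosensing and of intercalated disc stress, with earlier results of these data known. All 10 were in the table. The 64 libraries came from whole hearts of C57BL/6J mice in 8 groups set by genotype, training and sex. Transgenic (TG) mice carried cTnT-delta160E, a cardiac troponin T lacking a glutamate, used as a model of hypertrophic cardiomyopathy, and nTG mice were the same strain without it. Trained mice did high-intensity interval training for 6 weeks, on 3 days a week, in sessions of 31 min with 4 fast intervals at 85% and 4 slow intervals at 50% of their group's average speed, and the others stayed sedentary. The groups held 7 nTG sedentary males, 9 TG sedentary males, 8 nTG trained males, 8 TG trained males, 8 nTG sedentary females, 8 TG sedentary females, 10 nTG trained females and 6 TG trained females. The promoter that drives the transgene, the number of founder lines and the ages are not given in the sources used here. No label says that every library is a different mouse, so p-values measure the spread between these libraries.

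The columns of the gene table did not carry the libraries that their names say, so each column was first joined to a label through the lncRNA table of the same hearts. Read by name, 45 of the 64 gene columns contradicted the sex or the genotype of their label. After the join none did, all 64 pairs were mutual best matches, the lowest best correlation was 0.599 and the highest next best was 0.404. The training label has no marker gene to check it. The totals were 34574813 to 67068562 counts per library, and 13.4% to 20.4% of them were mitochondrial. The 10 genes had between 3456 counts (the lowest value of Fhl1) and 128886 counts (the highest value of Xirp2) in a library, so counting error is small beside the spread between hearts. Tnnt2, the gene of cardiac troponin T, was at 3147 ± 237 CPM (SD, n = 33) in nTG and 8938 ± 1113 CPM (SD, n = 31) in TG hearts, with no overlap. CPM here is the count scaled to library size with TMM factors. Myh6, the main myosin of mouse heart muscle, was at 42169 CPM in nTG and 37451 CPM in TG hearts on average. How reads of the transgene were assigned to Tnnt2 is not given in the sources used here.

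Heart muscle cells sense load at the places where force passes through them. Titin spans the sarcomere from the Z-disc and carries docking sites in its elastic part, where the ankyrin repeat proteins of Ankrd1 and Ankrd23 and the LIM proteins of Fhl1 and Fhl2 bind. The LIM protein of Csrp3 and the PDZ-LIM protein of Ldb3 belong to the Z-disc, as does the actin-binding protein of Synpo2l. The Xin proteins of Xirp1 and Xirp2 and the nebulin relative Nrap tie actin to the junctions at the intercalated disc, where the force reaches the next cell. Ankrd1 in particular is known as a gene that rises under stretch and pressure load. In whole-heart RNA, fewer cells of a type and less RNA per cell cannot be told apart.

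Short stretches of the promoter windows show letters known to be bound by factors that read load and actin state. They are shown for the genes that held either motif described below before a start, namely Ankrd1, Ankrd23, Fhl1, Fhl2 and Ldb3. The windows of Csrp3, Xirp2, Nrap and Synpo2l held neither motif. RefSeq windows on GRCm38.p6, from 250 bases before to 50 bases after a start, were found for 9 of the 10 genes, 15 windows in all, and none for Xirp1. M-CAT, the motif of TEAD factors, was searched as CATTCC on both strands. The CArG box of serum response factor was searched by name. Each stretch below is 30 bases of the gene's own strand, with the motif in capitals. Ankrd1 held M-CAT at 2 places on the opposite strand, at -210 to -205 (chr19:36120037-36120066) and at -123 to -118 (chr19:36119950-36119979). Ankrd23 held it at -120 to -115 in its second window (chr1:36535842-36535871). Fhl1 held a CArG box at -102 to -93 (chrX:56779571-56779600), Fhl2 at -96 to -87 of its first window (chr1:43196838-43196867) and Ldb3 at -35 to -26 of its first window (chr14:34588697-34588726). In GENCODE M21 the Ankrd1 and Fhl2 stretches also lie in the first exon of a longer transcript.
Ankrd1, -210: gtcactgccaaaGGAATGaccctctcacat
Ankrd1, -123: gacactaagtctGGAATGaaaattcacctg
Ankrd23, -120: cccagtgggccaCATTCCcagaacggtatt
Fhl1, -102: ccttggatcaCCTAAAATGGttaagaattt
Fhl2, -96: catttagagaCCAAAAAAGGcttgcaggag
Ldb3, -35: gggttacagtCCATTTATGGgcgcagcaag

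M-CAT was in 3 of the 15 windows (2 genes), against 14.7% of 32851 windows of all genes, a share near that background. The match not printed lies at +37 to +42 of the first Ankrd23 window. A CArG box was in 5 of the 15 windows (3 genes), against 1.63% of all windows, and the 2 Ldb3 windows overlap and share the same box. Fhl2 held a further CArG box at -31 to -22 of its second window (chr1:43163973-43164002). The MEF2 site, searched by name, was in 4 of the 15 windows (Fhl2, Xirp2 and Synpo2l) against 3.19% of all windows. AP-1 (TGANTCA) was in 3 of the 15 (Xirp2 and Ldb3) against 7.81%, and here too the 2 Ldb3 windows share the same match. GATAAG, the letters read by a further family of heart factors, was in 1 of the 15 (Fhl2) against 7.44%. Csrp3 and Nrap held none of these letters in these windows. A match is a description of the letters and not a measured site.

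Per length of exon sequence, Fhl2 was the most abundant of the 10 genes in nTG sedentary males and Fhl1 the least. Fhl2 had 415 CPM per kb there, Nrap 224, Ankrd23 214, Csrp3 195, Ldb3 177, Ankrd1 166, Xirp2 114, Xirp1 86.7, Synpo2l 51.8 and Fhl1 27.4. The spread between hearts of a group differed widely. Csrp3 had a coefficient of variation of 3.90% to 8.46% over the 8 groups, Ldb3 2.94% to 8.85%, and Ankrd1 13.2% to 43.9%.

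Averaged over sex and training, TG hearts had more Ankrd1, Ankrd23, Synpo2l, Xirp2 and Nrap and less Fhl2, Ldb3, Xirp1 and Csrp3, and Fhl1 did not pass the test. So 5 genes rose and 4 fell out of 10, where 39% of all genes passed the same test (18.5% higher, 20.5% lower). The median absolute difference was 0.23 log2 units over the 10 genes and 0.09 over all genes. The tests were edgeR quasi-likelihood tests with Benjamini-Hochberg adjustment over all 16913 genes, with differences given as log2 fold changes ± SE. Among relatives, Ankrd1 and Ankrd23 both rose, Xirp2 rose while Xirp1 fell, and Fhl2 fell while Fhl1 had no passing difference.

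**Figure D1:**
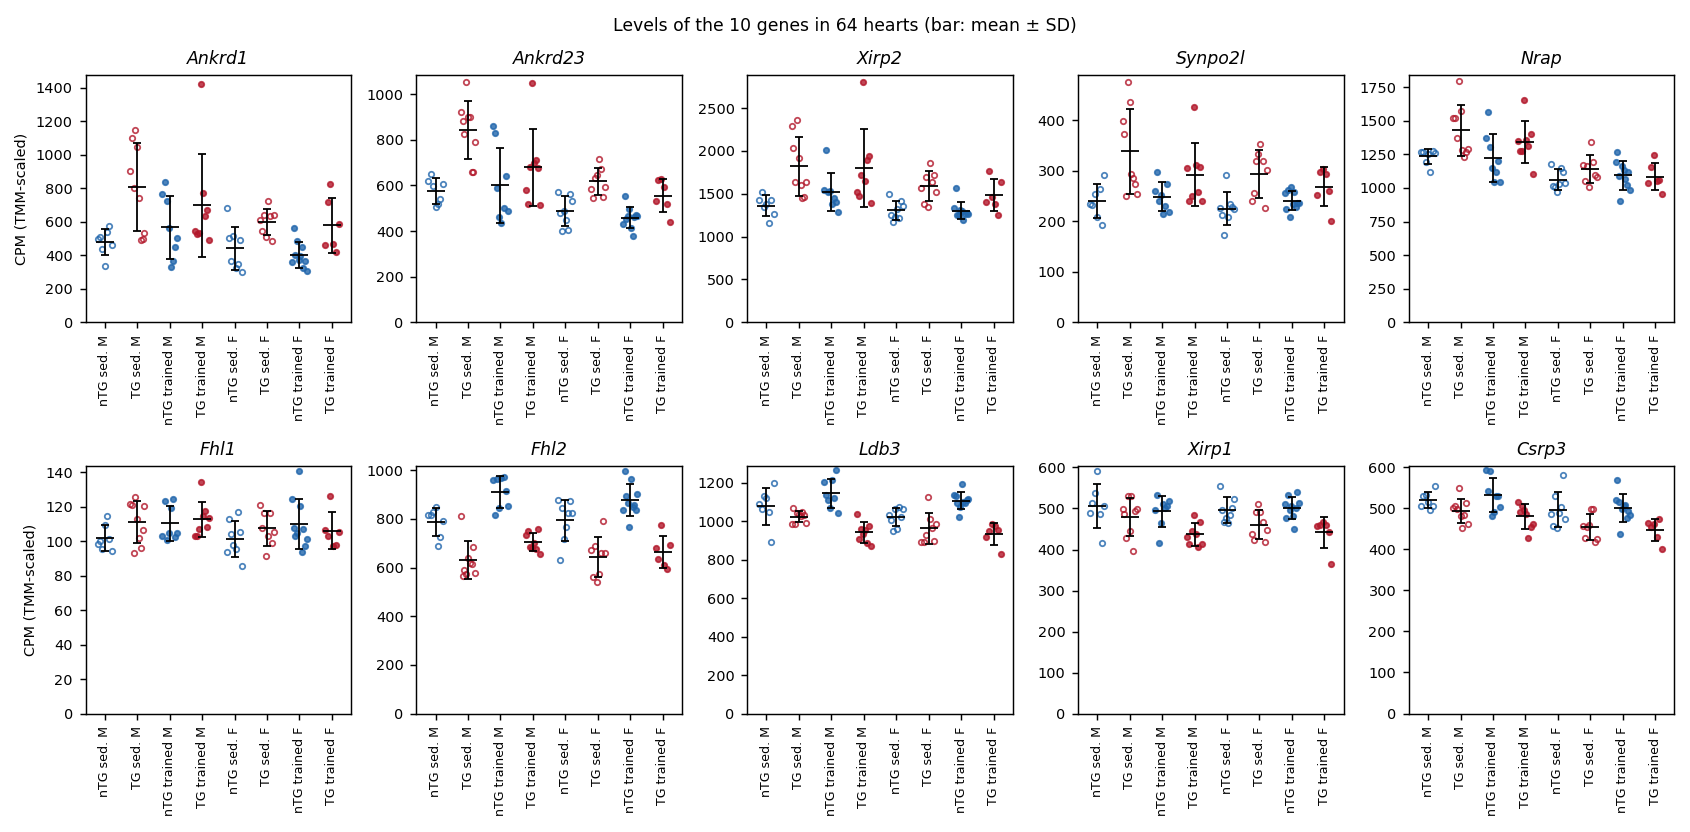
Levels of the 10 genes in CPM (linear axes from 0) in each of the 64 hearts, by group; points are libraries (red TG, blue nTG, filled trained, open sedentary) and bars are mean ± SD. All 9 TG sedentary males lie above every nTG sedentary male in Ankrd23, and 1 TG trained male stands far above its group in Ankrd1, at 1423 CPM.

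Ankrd1 and Ankrd23 rose most clearly in sedentary males. Ankrd1 (ENSMUSG00000024803, chr19:36111961-36120099, minus strand) encodes the cardiac ankyrin repeat protein, which binds titin and also enters the nucleus. It ran from 338 through a median of 499.9 to 574 CPM in nTG sedentary males and from 489.9 through 804 to 1146 CPM in TG sedentary males. The groups overlapped, with 6 of 9 TG hearts above every nTG heart. The difference was 0.75 ± 0.19, a fold of 1.69 (adjusted p = 0.0032). In this comparison 6 of the 10 genes passed, 5 higher and 1 lower, where 20.6% of all genes did (9.39% higher, 11.2% lower).

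In the other 3 comparisons of genotype, Ankrd1 did not pass. Trained males ran from 332 through 533 to 835 CPM without the transgene and from 490.5 through 590.0 to 1423 CPM with it (0.30 ± 0.19, adjusted p = 0.31). Leaving out TG trained male replicate 4, the heart at 1423 CPM, brought this to 0.07 (adjusted p = 0.859). Sedentary females ran from 299.8 through 427 to 682 CPM in nTG and from 488 through 622 to 723 CPM in TG hearts (0.44 ± 0.19, adjusted p = 0.20), and this difference passed with limma voom (0.59, adjusted p = 0.0316). Trained females ran from 309 through 386 to 564 CPM in nTG and from 417 through 525 to 826 CPM in TG hearts (0.52 ± 0.19, adjusted p = 0.056). This last value passed without any 1 of 6 libraries, among them nTG trained female replicates 2 and 4, and under 5 other settings. Averaged over the 4 comparisons, Ankrd1 was higher by 0.51 ± 0.10 (adjusted p = 1.7e-05), with 27 of 31 TG hearts above the nTG mean of their own sex and training. The order of the 8 group means ran from 402 CPM in nTG trained females, 441 in nTG sedentary females, 479 in nTG sedentary males, 567 in nTG trained males, 579 in TG trained females, 599 in TG sedentary females and 699.6 in TG trained males to 807 in TG sedentary males. Each step was smaller than the SD of at least 1 of its neighbours.

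Ankrd23 (ENSMUSG00000067653, chr1:36530188-36536883, minus strand) encodes the diabetes-related member of the same titin-binding family, found at the elastic part of titin beside the Ankrd1 protein. In sedentary males it ran from 504 through 596 to 651 CPM in nTG and from 657 through 882 to 1052 CPM in TG hearts, with no overlap. It was the only one of the 10 genes without overlap there, where 2.1% of all genes had none. The difference was 0.55 ± 0.12 (adjusted p = 3.6e-04). Trained males ran from 436 through 543 to 861 CPM in nTG and from 515 through 678 to 1047 CPM in TG hearts. These groups overlapped, with 1 of 8 TG hearts above every nTG heart (0.18 ± 0.11, adjusted p = 0.33). Without TG trained male replicate 4 this value was 0.06 (adjusted p = 0.794). Females differed by 0.35 ± 0.11 when sedentary (adjusted p = 0.067) and by 0.28 ± 0.12 when trained (adjusted p = 0.098). Both passed with limma voom (adjusted p = 0.0175 and 0.0309), when only the compared groups were fitted (adjusted p = 0.0184 and 0.0126) and with the library number as a covariate (adjusted p = 0.0462 and 0.0428). The sedentary value also passed without any 1 of 3 libraries, namely nTG sedentary female replicate 1, nTG trained male replicate 1 and TG trained male replicate 4 (adjusted p from 0.0378 to 0.0494). In sedentary females, 6 of 8 TG hearts were above every nTG heart (nTG 400.5 through 484 to 573 CPM, TG 544 through 613 to 717 CPM). The mean over the 4 comparisons was 0.34 ± 0.06 (adjusted p = 2.3e-06), with 27 of 31 TG hearts above their nTG mean. Ankrd23 shares its strand and part of its locus with the annotated Gm42417, and how the authors' counting split such reads is not given in the sources used here.

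Fhl2 was lower in TG hearts in all 4 comparisons of genotype. Fhl2 (ENSMUSG00000008136, chr1:43123074-43196984, minus strand) encodes a LIM-only protein that binds titin and is known to hold back growth signalling in heart muscle. Sedentary males ran from 688 through 815 to 848 CPM in nTG and from 564 through 616 to 812 CPM in TG hearts. All but 1 of the 9 TG hearts lay below every nTG heart, and that one was TG sedentary male replicate 1 at 811.7 CPM. Trained males ran from 815 through 936 to 973 CPM in nTG and from 658 through 693 to 759 CPM in TG hearts, with no overlap. Sedentary females ran from 632 through 825 to 876 CPM in nTG and from 539 through 661 to 793 CPM in TG hearts. Trained females ran from 765 through 861 to 995 CPM in nTG and from 596 through 658 to 775 CPM in TG hearts. The females overlapped in both pairs, by 5 of 8 and 1 of 6 TG hearts.

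The Fhl2 differences were -0.32 ± 0.07 (adjusted p = 3.2e-04), -0.37 ± 0.07 (adjusted p = 6.9e-05), -0.30 ± 0.07 (adjusted p = 0.0023) and -0.40 ± 0.07 (adjusted p = 4.5e-05), in the same order. In sedentary females the call was lost when only the compared groups were fitted (-0.30, adjusted p = 0.0505). The mean was -0.35 ± 0.03 (adjusted p = 5.6e-13), a fold of 0.786, and 30 of 31 TG hearts were below the nTG mean of their stratum. Its relative Fhl1 (ENSMUSG00000023092, chrX:56731787-56793346, plus strand), an X-linked LIM-only gene linked to muscle disease, lay between 85.4 and 141 CPM in all 33 nTG hearts and between 91.2 and 134 CPM in all 31 TG hearts. The ranges nearly coincided, and the mean difference was 0.05 ± 0.04 (95% interval -0.02 to 0.12, adjusted p = 0.33). A pseudogene, Gm8210, lies within Fhl2 and a small nuclear RNA gene, Gm23258, within Fhl1. Gene positions here and below are those of GENCODE M21 on GRCm38.

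Ldb3 was lower in trained TG hearts with no overlap in either sex. Ldb3 (ENSMUSG00000021798, chr14:34526603-34588682, minus strand) encodes cypher, also called ZASP, which holds α-actinin at the Z-disc. Trained males ran from 1044 through 1128 to 1266 CPM in nTG and from 873 through 944 to 1039 CPM in TG hearts (-0.28 ± 0.04, adjusted p = 7.4e-06). Trained females ran from 1019 through 1105 to 1191 CPM in nTG and from 829.3 through 953 to 988 CPM in TG hearts (-0.24 ± 0.05, adjusted p = 1.6e-04). Sedentary hearts overlapped: the differences were -0.07 ± 0.04 in males (adjusted p = 0.25) and -0.09 ± 0.04 in females (adjusted p = 0.33). Whether the genotype difference itself changed with training was tested as an interaction and did not pass, at -0.21 ± 0.06 in males (adjusted p = 0.16) and -0.16 ± 0.06 in females (adjusted p = 0.75). With limma voom and quality weights the male interaction was -0.20 (adjusted p = 0.0464).

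Ldb3 and Fhl2 were the 2 genes without overlap in trained males, where 1.82% of all genes had none, and Ldb3 the 1 gene in trained females, where 2.57% had none. In trained males 4 genes passed the test and all were lower (Fhl2, Ldb3, Xirp1, Csrp3), where 14% of all genes passed, 8.31% lower. The same 4 genes passed in trained females, again all lower, where 14.8% of all genes passed, 9.43% lower. Without TG trained male replicate 6 the count in trained males was 2, where 12% of all genes passed, and without TG trained female replicate 6 the count in trained females was 2, where 12.2% did. Fitting only the compared groups gave 7 in trained females, where 14.6% of all genes passed. In sedentary females 2 passed, Fhl2 lower and Synpo2l higher, where 4.37% of all genes passed (1.58% higher, 2.78% lower). None of the 10 was free of overlap there, where 0.52% of all genes were. The count of 2 was 4 without TG trained male replicate 4, where 4.79% of all genes passed, and 1 without any 1 of 10 libraries of the compared groups, where 3.09% to 4.08% did.

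**Figure D2:**
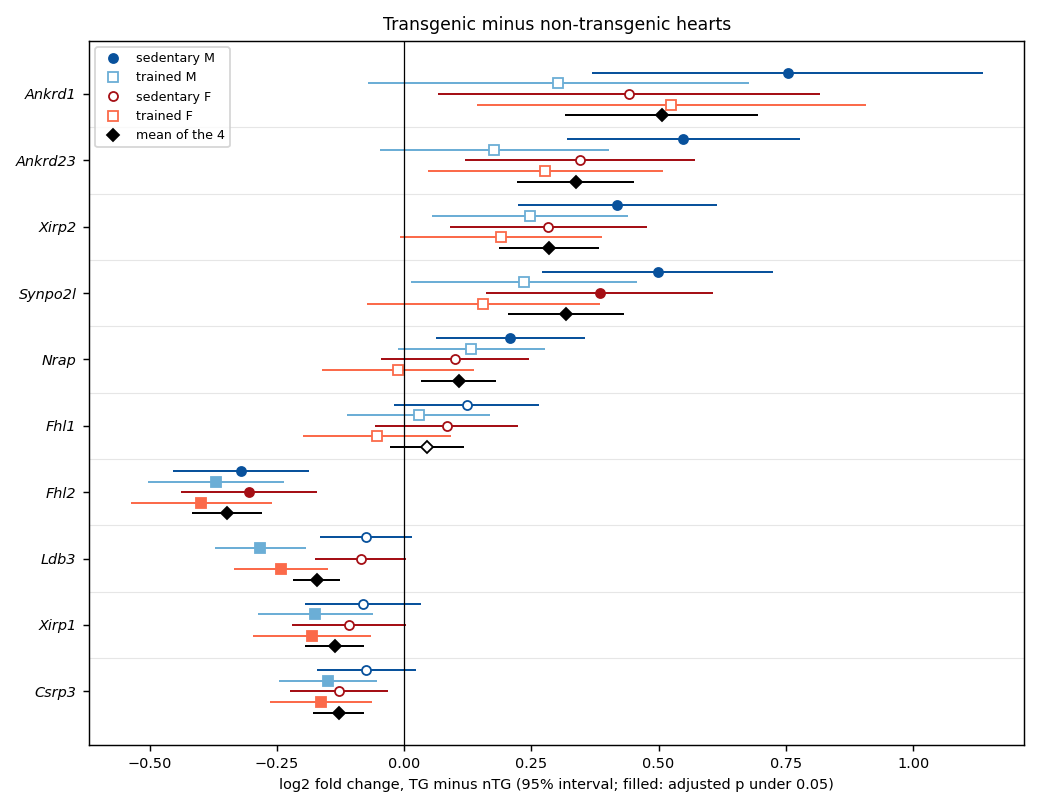
Log2 fold change of TG minus nTG hearts with 95% intervals for each of the 10 genes, in sedentary and trained males and females and as the mean of the 4; filled symbols have an adjusted p under 0.05. Fhl2 is filled in all 4 groups of mice, and Ldb3, Xirp1 and Csrp3 are filled in trained mice of both sexes.

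The Xin genes moved in opposite directions. Xirp2 (ENSMUSG00000027022, chr2:67446002-67526614, plus strand), which encodes an actin-binding repeat protein of the intercalated disc, ran from 1159 through 1379 to 1524 CPM in nTG sedentary males and from 1446 through 1639 to 2361 CPM in TG sedentary males. There 7 of 9 TG hearts were above every nTG heart (0.42 ± 0.10, adjusted p = 0.0013). The other 3 differences were 0.25 ± 0.10 in trained males (adjusted p = 0.078), 0.28 ± 0.10 in sedentary females (adjusted p = 0.082) and 0.19 ± 0.10 in trained females (adjusted p = 0.20). In trained males the value was 0.13 without TG trained male replicate 4, and it passed without TG trained male replicate 1, 2 or 8 or nTG trained male replicate 2 (0.28 to 0.32, adjusted p from 0.0202 to 0.0472). The mean was 0.29 ± 0.05 (adjusted p = 2.9e-06), with 28 of 31 TG hearts above their nTG mean. Xirp2 in sedentary females passed with DESeq2 (adjusted p = 0.0467), limma voom (adjusted p = 0.0264), only the compared groups (adjusted p = 0.0221) and without TG trained male replicate 4 (adjusted p = 0.0339). In trained females it passed with only the compared groups (adjusted p = 0.0319).

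Xirp1 (ENSMUSG00000079243, chr9:120013755-120023598, minus strand), which encodes the shorter Xin protein, had a narrower range. Its trained males ran from 415 through 503 to 532 CPM in nTG and from 406 through 434 to 485 CPM in TG hearts, and 3 of 8 TG hearts were below every nTG heart (-0.17 ± 0.06, adjusted p = 0.028). Its trained females ran from 449.6 through 504 to 541 CPM in nTG and from 365 through 458 to 467 CPM in TG hearts (-0.18 ± 0.06, adjusted p = 0.028). The call in trained males was lost without any 1 of 7 libraries, namely TG trained male replicates 2, 6 and 8 and nTG trained male replicates 2, 5, 7 and 8 (adjusted p from 0.0502 to 0.0626). The call in trained females was lost without TG trained female replicate 5 or 6 (adjusted p = 0.0657 and 0.137) and when only genes with a mean of at least 50 counts were tested (-0.16, adjusted p = 0.0506). Sedentary differences were -0.08 ± 0.06 in males (adjusted p = 0.34) and -0.11 ± 0.06 in females (adjusted p = 0.34), and the mean was -0.14 ± 0.03 (adjusted p = 8.7e-05). Xirp1 shares its strand and locus with an annotated Cx3cr1 transcript, and an antisense gene, Gm13601, overlaps Xirp2. The strand setting of the counting is not given in the sources used here, so reads of such partners cannot be told apart.

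Within a heart, the ratio of Xirp2 to Xirp1 was higher in TG hearts in all 4 strata. As a log2 ratio it was 1.91 ± 0.24 in TG and 1.43 ± 0.21 in nTG sedentary males (SD, n = 9 and 7), a difference of 0.48 (exact permutation test, two-sided, p = 0.0020, adjusted over 12 tests 0.0048). It was higher by 0.40 in trained males (exact adjusted p = 0.0078), by 0.39 in sedentary females (exact adjusted p = 0.0042) and by 0.37 in trained females (exact adjusted p = 0.0042). The TG hearts with a higher ratio than every nTG heart were 6 of 9 sedentary males, 4 of 8 trained males, 7 of 8 sedentary females and 2 of 6 trained females, so the groups overlapped in each stratum. The ratio of Fhl2 to Fhl1 was lower in TG hearts in all 4 strata, with differences of -0.44, -0.40, -0.39 and -0.35 (exact adjusted p = 0.0042, 0.0042, 0.0086 and 0.0086). Here 4 of 9, 5 of 8, 3 of 8 and 0 of 6 TG hearts were below every nTG heart, in the same order. The ratio of Ankrd1 to Ankrd23 differed by 0.10 to 0.23, with exact adjusted p between 0.22 and 0.48. These pairs were chosen with the single-gene results known, and a ratio shows unequal change only.

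**Figure D3:**
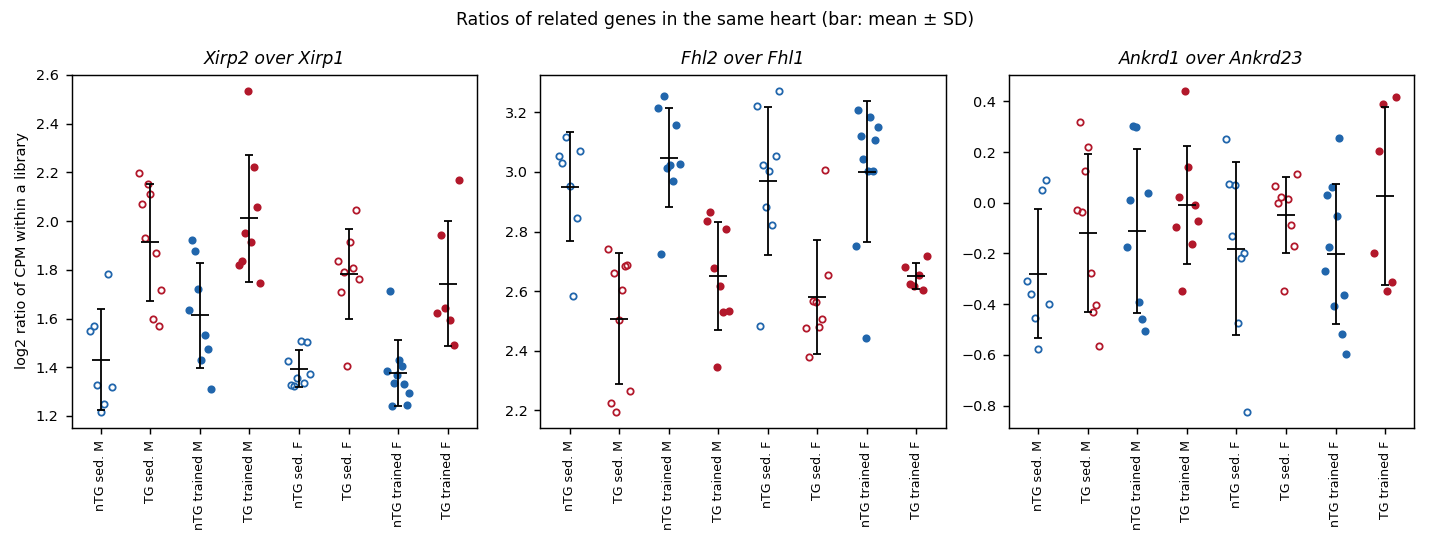
Log2 ratio of CPM of related genes within each heart, by group; points are libraries (red TG, blue nTG, filled trained, open sedentary) and bars are mean ± SD. The mean Xirp2 to Xirp1 ratio is higher and the mean Fhl2 to Fhl1 ratio lower in TG hearts of all 4 strata, and the points of TG and nTG hearts overlap in every panel and stratum.

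Synpo2l and Nrap rose with the transgene in sedentary males. Synpo2l (ENSMUSG00000039376, chr14:20658946-20668354, minus strand) encodes an actin-associated protein of the Z-disc known as CHAP. It ran from 192 through 234 to 291 CPM in nTG sedentary males and from 250.4 through 294 to 476 CPM in TG sedentary males (0.50 ± 0.11, adjusted p = 9.7e-04). In sedentary females it ran from 173 through 226 to 291 CPM in nTG and from 227 through 310.4 to 354 CPM in TG hearts (0.38 ± 0.11, adjusted p = 0.034), and 5 of 8 TG hearts were above every nTG heart. That call was lost without any 1 of 10 of the 16 libraries compared, namely TG sedentary female replicates 3, 4, 5, 6 and 8 and nTG sedentary female replicates 2, 3, 5, 7 and 8 (0.34 to 0.39, adjusted p from 0.0528 to 0.0969). The trained differences were 0.24 ± 0.11 in males (adjusted p = 0.16) and 0.16 ± 0.12 in females (adjusted p = 0.39). Without TG trained male replicate 4 the male value was 0.14.

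Nrap (ENSMUSG00000049134, chr19:56320035-56390037, minus strand) anchors actin filaments at the junctions and at growing myofibrils. It ran from 1119 through 1262 to 1275 CPM in nTG sedentary males and from 1229 through 1369 to 1799 CPM in TG sedentary males, with 7 of 9 TG hearts above every nTG heart (0.21 ± 0.07, adjusted p = 0.034). That call was lost without any 1 of 5 libraries of the compared groups, namely TG sedentary male replicates 2, 4 and 5 and nTG sedentary male replicates 3 and 5. Trained males, sedentary females and trained females gave 0.13 ± 0.07, 0.10 ± 0.07 and -0.01 ± 0.08 (adjusted p = 0.24, 0.55 and 0.94), and the trained male value was 0.08 without TG trained male replicate 4 (adjusted p = 0.527). Its mean over strata was 0.11 ± 0.04 (adjusted p = 0.016). Habp2 and Gm17197 lie on the opposite strand of its locus.

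Csrp3 (ENSMUSG00000030470, chr7:48830398-48848033, minus strand), the muscle LIM protein of the Z-disc whose loss is known to cause cardiomyopathy, was lower in TG hearts by little more than its spread. Trained males ran from 481 through 529.6 to 593 CPM in nTG and from 428 through 489 to 515 CPM in TG hearts (-0.15 ± 0.05, adjusted p = 0.027). Trained females ran from 437 through 502 to 568.4 CPM in nTG and from 399.7 through 457 to 473 CPM in TG hearts (-0.16 ± 0.05, adjusted p = 0.020). Sedentary differences were -0.07 ± 0.05 and -0.13 ± 0.05 in males and females (adjusted p = 0.30 and 0.13). The mean was -0.13 ± 0.02 (adjusted p = 1.7e-05), and 28 of 31 TG hearts were below their nTG mean. With only the compared groups fitted, the trained male value was -0.15 (adjusted p = 0.0648). The trained male call was also lost without any 1 of 5 libraries, namely TG trained male replicates 6, 7 and 8 and nTG trained male replicates 1 and 3 (adjusted p from 0.0505 to 0.085). The trained female call was lost without TG trained female replicate 4 or 6 (adjusted p = 0.0702 and 0.0836).

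Markers of heart cell types moved with genotype too. Averaged over strata, 5 of 6 cardiomyocyte markers were lower (Mybpc3, Tnni3, Pln, Myh6 and Actc1), with a median of -0.14 over the 6. Their summed level ran from 56060 to 69008 CPM in nTG and from 47312 to 61928 CPM in TG groups. All 5 fibroblast markers were higher, at 406 to 793 CPM summed in nTG and 498 to 1014 CPM in TG hearts, and all 4 macrophage markers were higher, at 79.3 to 156 CPM and 101 to 199 CPM. The mean differences of Csrp3, Xirp1 and Ldb3 were -0.13, -0.14 and -0.17, that of Fhl2 was -0.35, and 5 genes rose. By stratum, the cardiomyocyte marker median was -0.22 in sedentary and -0.08 in trained males. There Csrp3, Xirp1 and Ldb3 differed by -0.07, -0.08 and -0.07, and by -0.15, -0.17 and -0.28. In females the median was -0.08 when sedentary and -0.18 when trained. There these genes differed by -0.13, -0.11 and -0.09, and by -0.16, -0.18 and -0.24. In the mean over strata, 3 of 5 blood markers were lower, at 403 to 1112 CPM summed in nTG and 260 to 4603 CPM in TG hearts. Of 4 endothelial markers 1 was lower, no smooth muscle or atrial marker passed, 1 of 2 measured adipocyte markers was lower, and the single measured of 7 skeletal muscle markers was higher but stayed at or below 1.57 CPM in every heart. The part of these cell types in the results was not tested.

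Training moved few of the 10 genes. No gene of the 10 passed in nTG males, where 0% of all genes did, in nTG females, where 0.148% did, or in TG females, where 0% did. At an unadjusted p under 0.05 the counts of the 10 were 1, 2 and 0, where 5.91%, 14.2% and 3.58% of all genes were under it, so these counts are near the background. Both limma voom and DESeq2 gave 0 of the 10 in these 3 comparisons, where limma voom called 0.00591%, 0.591% and 0.0177% of all genes and DESeq2 0.0237%, 0.562% and 0%. In TG males 2 genes passed, both lower (Ankrd23 and Ldb3), where 18% of all genes passed, 7.6% lower. That share is near the background.

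Ankrd23 in TG males ran from 657 through 882 to 1052 CPM when sedentary and from 515 through 678 to 1047 CPM when trained. All but 1 of the trained hearts were at or below 713 CPM, and 3 of 8 were below every sedentary heart (-0.31 ± 0.11, adjusted p = 0.040). Without TG trained male replicate 4, the heart at 1047 CPM, the value was -0.44 (adjusted p = 0.0023). The call was lost without any 1 of 10 other libraries of these groups, when only the compared groups were fitted (adjusted p = 0.0834) and with the library number as a covariate (adjusted p = 0.0635). Ldb3 in TG males ran from 983 through 1031 to 1069.8 CPM when sedentary and from 873 through 944 to 1039 CPM when trained, and 7 of 8 trained hearts were below every sedentary heart (-0.12 ± 0.04, adjusted p = 0.042). Its call was lost without any 1 of 9 libraries of these groups. Over all libraries left out in turn, between 0 and 4 of the 10 genes passed, where 10.1% to 24% of all genes did, with 4 only without TG trained male replicate 4. In the 6 fits that gave 0, between 10.1% and 16.6% of all genes passed. Without that heart 24% of all genes passed, Synpo2l (-0.32) and Xirp1 (-0.16) were added and Ankrd1 reached -0.45 (adjusted p = 0.0546). In the same comparison 5 of 5 blood markers, 3 of 4 macrophage markers, 2 of 4 endothelial markers and 2 of 5 fibroblast markers were lower and 2 of 6 cardiomyocyte markers higher. Their part in these results was not tested.

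Fhl2 was higher after training in 3 of 4 comparisons at an unadjusted p under 0.05 (nTG males, nTG females and TG males, where 5.91%, 14.2% and 31.9% of all genes were under it), and none passed the adjustment. The differences were 0.21 ± 0.07 in nTG males (adjusted p = 0.62), 0.14 ± 0.06 in nTG females (adjusted p = 0.29), 0.16 ± 0.06 in TG males (adjusted p = 0.072) and 0.05 ± 0.07 in TG females (adjusted p close to 1). In TG males it passed without TG sedentary male replicate 1 and with limma voom (0.17, adjusted p = 0.0251). Ldb3 in nTG females was 0.12 ± 0.04 higher after training (adjusted p = 0.19), with 8 of 10 trained hearts above every sedentary heart. The interaction of genotype with training passed for none of the 10 genes in males or females, where 0% of all genes passed. Unadjusted p was under 0.05 for 2 genes in males (Ankrd23 and Ldb3), where 14.8% of all genes were under it, and for 1 in females (Ldb3), where 6.46% were, so both counts are near the background. In males limma voom called 1 of the 10, Ldb3, and 1.77% of all genes, and DESeq2 called none of the 10 and 0.00591% of all genes. In females both called none of the 10 and 0% of all genes. For Ankrd1 in males the interaction was -0.45 ± 0.27, with a 95% interval from -0.98 to 0.08 (adjusted p = 0.436), and without TG trained male replicate 4 it was -0.69 (adjusted p = 0.123).

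**Figure D4:**
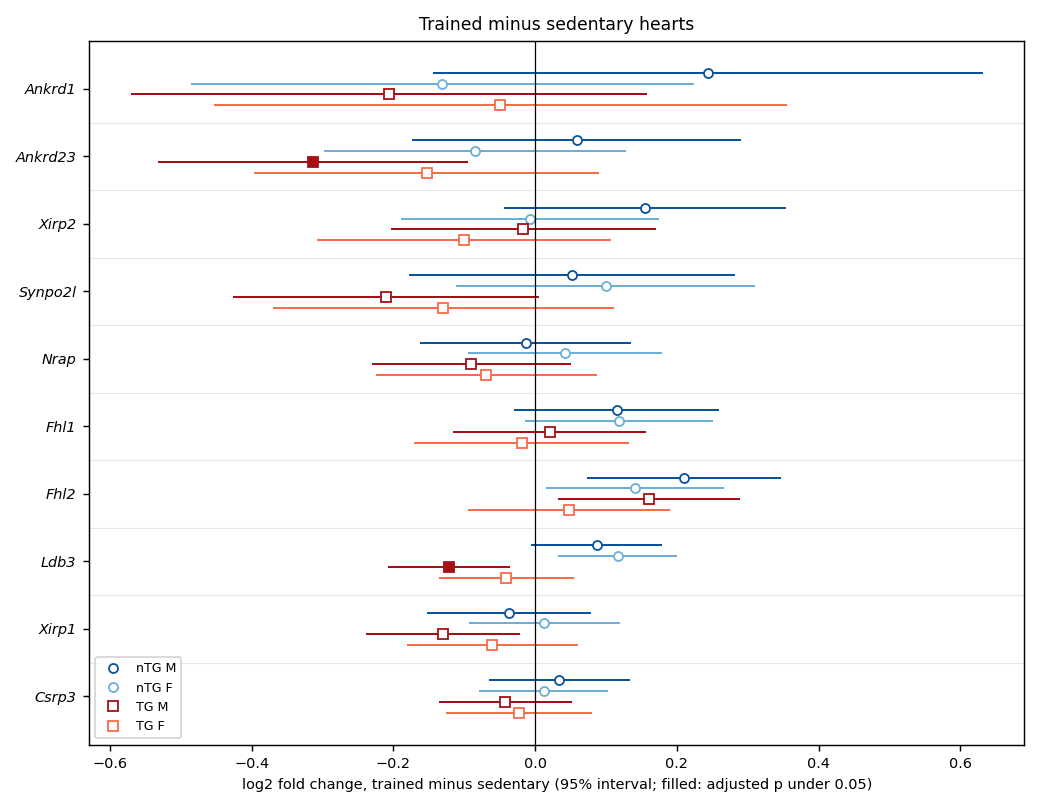
Log2 fold change of trained minus sedentary hearts with 95% intervals for the 10 genes in nTG and TG males and females; filled symbols have an adjusted p under 0.05. Only Ankrd23 and Ldb3 in TG males are filled, both below 0.

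Neither the genotype difference nor the training difference in TG hearts was shown to differ between males and females. Both tests called none of the 10 genes with edgeR, where 0% of all genes passed. None of the 10 had an unadjusted p under 0.05 either, where 4.71% of all genes were under it for genotype by sex and 18.1% for training by sex. Both limma voom and DESeq2 also called 0 of the 10. Of all genes, both called 0% for genotype by sex, and for training by sex limma voom called 5.48% and DESeq2 0.981%. In sedentary nTG hearts, none of the 10 genes passed between females and males with edgeR, limma voom or DESeq2, where 2.22% of all genes did with edgeR, 3.15% with limma voom and 3.09% with DESeq2. An unadjusted p under 0.05 was found for 2 of the 10 and for 15.2% of all genes, so this count is near the background. The 2 were Nrap, which differed by -0.22 ± 0.08 as females minus males (adjusted p = 0.11), and Ankrd23, at -0.25 ± 0.12 (adjusted p = 0.30). Nrap passed when only the compared groups were fitted (-0.22, adjusted p = 0.0401). The X-linked Fhl1 was at 101 ± 10.3 CPM in females (SD, n = 8) and 102 ± 7.56 CPM in males (SD, n = 7).

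Within TG hearts, Ankrd1, Nrap, Fhl1, Xirp2, Ankrd23 and Synpo2l were lower in hearts with more Tnnt2, and taken by sex the relation passed the test in males and not in females. The measure was the log2 CPM of each heart minus its group's mean, over 31 TG hearts and 10 genes. Pearson's r was -0.64 for Ankrd1 (Spearman's rho -0.55, permutation p = 0.00030 and 0.0025, adjusted over 10 genes 0.0030 and 0.011). It was -0.61 for Nrap (rho -0.61, permutation p = 0.00086 and 0.0010, adjusted 0.0043 and 0.010) and -0.57 for Fhl1 (rho -0.54, permutation p = 0.0018 and 0.0034, adjusted 0.0059 and 0.011). Xirp2, Ankrd23 and Synpo2l had r of -0.48, -0.47 and -0.46 (permutation p = 0.011, 0.015 and 0.013, each adjusted to 0.025). Their rho values were -0.44, -0.41 and -0.39 (adjusted permutation p = 0.046, 0.056 and 0.069). Fhl2, Csrp3, Xirp1 and Ldb3 lay between -0.09 and 0.04. Over 13397 genes, 0.485% had an r at or below that of Ankrd1, 0.933% at or below that of Nrap and 4.79% at or below that of Synpo2l.

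The relation was also taken by sex and without single hearts. In the 17 male TG hearts r was -0.84 for Ankrd1, -0.85 for Nrap, -0.86 for Synpo2l, -0.73 for Xirp2, -0.73 for Ankrd23 and -0.65 for Fhl1, and these 6 passed (adjusted permutation p from 0.00040 to 0.012). Over 13397 genes in these 17 hearts, 3.54% had an r at or below that of Fhl1, the weakest of the 6, 1.38% at or below that of Ankrd23 and 0.164% at or below that of Ankrd1. In the 14 female TG hearts none passed, by Pearson's or Spearman's test, with r of -0.28 for Ankrd1, -0.20 for Nrap, 0.23 for Synpo2l, 0.03 for Xirp2, 0.05 for Ankrd23 and -0.46 for Fhl1. The difference between the sexes was not itself tested. On the log2 scale of the test, the 2 hearts farthest from the median Tnnt2 were both low, TG trained male replicate 4 at 6918 CPM and TG sedentary male replicate 5 at 6538 CPM, against a median of 9019 CPM. The values for males include both of these hearts, and r in males was not taken without them. Over the TG hearts of both sexes without these 2, r was -0.48 for Ankrd1, -0.48 for Nrap and -0.52 for Fhl1. These 3 still passed by Pearson's test, and Xirp2, Ankrd23 and Synpo2l, at -0.31, -0.27 and -0.24, did not. By Spearman's test Nrap and Fhl1 passed, and Ankrd1 did not (rho -0.45, adjusted permutation p = 0.0696). In CPM, TG trained female replicate 1 at 11721 CPM lay farthest, followed by TG sedentary male replicate 5. Without that pair, r was -0.63 for Ankrd1, -0.62 for Nrap, -0.68 for Fhl1, -0.52 for Xirp2 and -0.50 for Ankrd23, which passed, and -0.42 for Synpo2l, which did not (adjusted permutation p = 0.0546). By Spearman's test Ankrd23 did not pass either (rho -0.37, adjusted permutation p = 0.111). Without TG trained male replicate 4 alone, Ankrd1 (-0.53) and Nrap (-0.52) passed by both tests, and Fhl1 passed by Spearman's (rho -0.49, adjusted permutation p = 0.0440) and not by Pearson's (-0.49, adjusted permutation p = 0.0532). In the 33 nTG hearts, treated the same way, only Ankrd23 passed, at -0.50 (adjusted permutation p = 0.032; by Spearman's test, rho -0.50, adjusted permutation p = 0.0517), where 1.69% of 13397 genes were at or below it, and Ankrd1 was at -0.45 (adjusted permutation p = 0.052). In the same nTG hearts r was -0.44 for Xirp2 (adjusted permutation p = 0.052, with 3.34% of genes at or below it) and -0.41 for Synpo2l (adjusted permutation p = 0.070, with 4.47%). The difference between TG and nTG hearts was not tested.

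Those 2 hearts also stood apart in other markers. TG trained male replicate 4 had 1014 CPM of fibroblast markers, against 508 to 681 CPM in the other 7 hearts of its group, and 47312 CPM of cardiomyocyte markers, against 53920 to 61928 CPM. It had 189 CPM of macrophage markers against 108 to 139 CPM, 209 CPM of atrial markers against 1.55 to 128 CPM, and 472 CPM of Nppa against 51.6 to 119 CPM. TG sedentary male replicate 5 had 4603 CPM of blood markers, against 290.4 to 1150 CPM in the other 8 hearts of its group. It also lay just outside them in cardiomyocyte markers (50990 CPM against 51500 to 59760), fibroblast markers (821.7 against 497.9 to 800.5) and macrophage markers (198.7 against 113.6 to 192.9). Its smooth muscle markers were lower (81.79 CPM against 95.71 to 260.1) and its adipocyte markers higher (21.93 against 12.61 to 16.43). The part of these cell types in the relation with Tnnt2 was not tested. Without both hearts, 9 of the 10 genes passed in the mean genotype comparison, where 36.4% of all genes did.

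**Figure D5:**
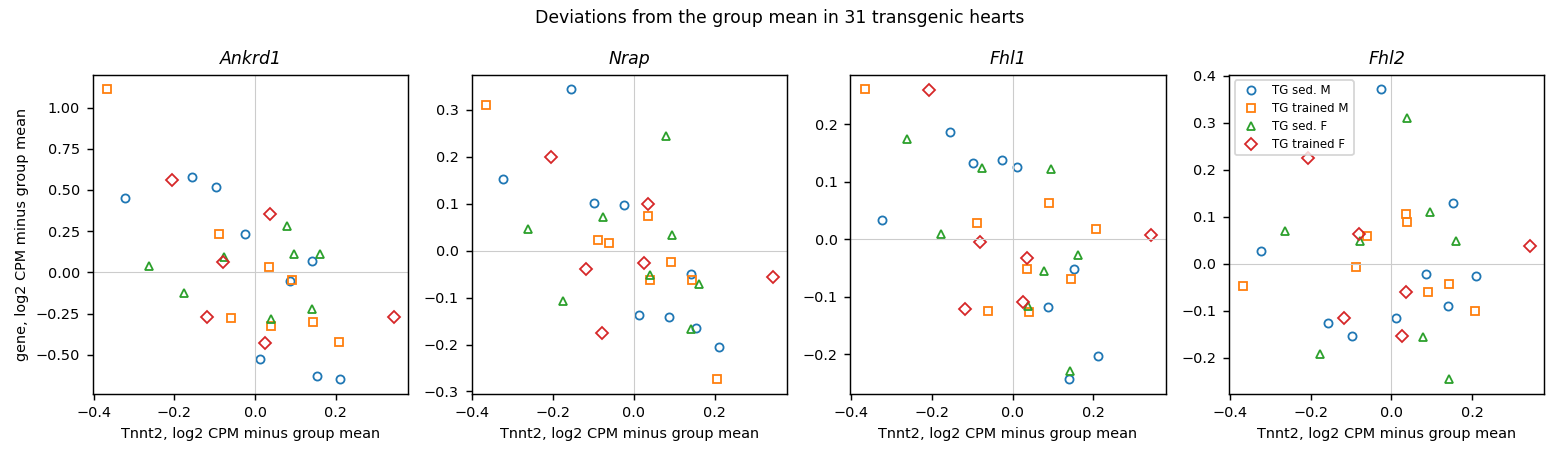
Deviation of Ankrd1, Nrap, Fhl1 and Fhl2 from their group mean (log2 CPM) against that of Tnnt2 in the 31 TG hearts; symbols mark the 4 TG groups. Ankrd1, Nrap and Fhl1 slope downward with r of -0.64, -0.61 and -0.57, and Fhl2 has no slope, with r of -0.05; the heart at the far upper left in Ankrd1 is TG trained male replicate 4.

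Genes most like each of the 10, by Pearson's r of log2 CPM over the 64 libraries, are given as a description, since the libraries share groups. Setd7 was nearest to Ankrd23 (0.90), Dmpk to Ldb3 (0.87), Clip1 to Nrap (0.85), Pla1a to Ankrd1 (0.83), Mrpl18 to Fhl2 (0.83), Gnao1 to Synpo2l (0.82) and Ttll7 to Xirp2 (0.81). Tnnc1 was nearest to Csrp3 (0.80), Irgq to Xirp1 (0.75) and Ccn2 to Fhl1 (0.64). Tbx15 was second nearest to both Ankrd1 (0.83) and Xirp2 (0.80). Among the 10 themselves, after taking out the group means, the closest pairs were Xirp2 with Nrap (0.76), Ankrd23 with Nrap (0.72), Ankrd23 with Xirp2 (0.70) and Ankrd1 with Ankrd23 (0.70), all of genes that rose.

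Other genes of the same structures were followed from lists, in the mean genotype comparison, where 39% of all genes passed. Of 17 genes of intercalated disc junctions, 15 were lower and none higher, with a median of -0.12. Popdc2, a cyclic AMP binding membrane protein, went from 486 ± 45.5 to 366 ± 34 CPM (SD, n = 33 nTG and 31 TG; -0.40 ± 0.03, adjusted p = 2.5e-16). The junction protein Lmo7 differed by -0.21 ± 0.03. Nrap and Xirp2 were thus higher where most junction genes of the list were lower.

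Of 20 genes of the Z-disc and titin partners, 3 were higher and 7 lower. Cryab, the small heat shock protein that guards titin and desmin, was lower by a log2 fold change of -0.27 ± 0.02, the formin Fhod3 by -0.22 ± 0.03 and the ubiquitin ligase Trim63 by -0.18 ± 0.03. Ttn itself was higher by 0.21 ± 0.03, Myot by 0.19 ± 0.06 and Synm by 0.10 ± 0.04. Of 12 measured relatives of the 10 genes, 2 were higher (Pdlim3 0.31 ± 0.08, Pdlim7 0.13 ± 0.04) and 3 lower (Pdlim4 -0.25 ± 0.06, Synpo2 -0.12 ± 0.03, Nebl -0.11 ± 0.03). Synpo2, the nearest relative of Synpo2l, thus differed in the opposite direction. Ankrd2, the third titin-binding ankyrin repeat gene, was not found in the count table.

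Of 18 genes of the costamere and its integrins, 3 were higher (Dmd 0.15 ± 0.03, Zyx 0.14 ± 0.04, Tln2 0.05 ± 0.02) and 6 lower, among them Sgca (-0.31 ± 0.03), Itgb1bp2 (-0.27 ± 0.03) and Sspn (-0.10 ± 0.02). Itgb1bp2 encodes melusin, a muscle partner of integrin that responds to stretch. Of 15 genes of stretch and actin-responsive transcription, 8 were higher and 3 lower. Myh7, the slow myosin known to return in loaded mouse hearts, went from 503 ± 344 to 1148 ± 857 CPM (SD, n = 33 nTG and 31 TG; 1.06 ± 0.18, adjusted p = 2.8e-06) and Acta1, skeletal actin, from 188 ± 122 to 377 ± 209.9 CPM (0.93 ± 0.17, adjusted p = 1.3e-05). Mrtfb, a partner of serum response factor, was higher by 0.28 ± 0.02, while its relative Myocd was lower at -0.30 ± 0.03, as were Tead4 at -0.13 ± 0.05 and Yap1 at -0.08 ± 0.02.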

How the data were processed

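The authors deposited a gene table of whole-number counts per Ensembl gene, not normalized. The authors also deposited expected counts (estimated counts) per lncRNA transcript of the same libraries, some of them fractional. The submitters' processing notes name cutadapt 2.3, STAR 2.7.8a and RSEM 1.3.3 and the build GRCm38, without saying which step made which table. Symbols came from GENCODE M21 for 16879 of 16913 identifiers. Each lncRNA column was joined to the gene column with the highest Pearson correlation of centred log2 CPM over 389 autosomal transcripts of both tables, and its label was used. Counts were tested with edgeR 4.0.16 (quasi-likelihood, TMM, 8 group means, Benjamini-Hochberg adjusted p under 0.05); filterByExpr kept every gene. SE is the fold change over the root of F, and intervals are 1.96 SE. Alternatives used limma 3.58.1 and DESeq2 1.42.0, other filters and scalings, and each library left out. Genes in lists were named as the up to 3 rising and 3 falling with the smallest p. A gene that this rule named is not reported here. The members, lists, ratios and tests were chosen with earlier results of these data known. The test was checked on simulated counts.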

Additional observations from a re-analysis of the deposited data

Results flagged for a closer look

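In 10 of 80 sets of values (10 genes in 8 groups) the highest or lowest heart stood apart from the others of its group by Dixon's test at 95%, where chance gives about 4. TG trained male replicate 4 was the highest heart in 5 of them. It had 134.4 CPM of Fhl1 (others 102.7 to 117.2), 1423 of Ankrd1 (490.5 to 772), 1047 of Ankrd23 (514.9 to 713.2), 2809 of Xirp2 (1388 to 1946) and 427.2 of Synpo2l (240.3 to 312.1).

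TG trained female replicate 3 was highest in Fhl1 at 126.3 CPM (97.03 to 106.2), and TG trained female replicate 6 lowest in Xirp1 at 364.6 CPM (442.9 to 467.4). TG sedentary male replicate 1 was highest in Fhl2 at 811.7 CPM (564.2 to 686.1). In Xirp2, nTG trained male replicate 2 was highest at 2016 CPM (1288 to 1543), and nTG trained female replicate 2 at 1562 CPM (1191 to 1332).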

How the results depend on the processing

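With gene columns read by their own names, none of the 10 genes passed in any of the genotype comparisons or in TG males by training (0 in each, where 0% of all genes passed), and Csrp3 (0.0524 in trained males, 0.000465 in trained females, 0.0317 in the mean), Xirp1 (0.0314) and Ldb3 (0.0814 in trained males) changed sign; 45 of these columns contradict their label. Under that reading r with Tnnt2 was 0.0701 for Fhl1, -0.71 for Fhl2, -0.345 for Csrp3, -0.286 for Xirp1, 0.545 for Ankrd1, 0.481 for Ankrd23, 0.538 for Xirp2, 0.26 for Nrap, -0.433 for Ldb3 and 0.559 for Synpo2l. The number of genes passing moved by over 1.5 times with limma voom (sedentary females 5, where 7.5% of all genes passed, TG males by training 4, where 26.8% did, and male interaction 1, where 1.77% did), with only the compared groups fitted (trained females 7, TG males by training 1 and nTG females against males 1, where 14.6%, 16.6% and 0.858% did), with the library number as a covariate (TG males by training 1, where 16.2% did) and without the 2 hearts that stand apart (sedentary females 4, where 4.87% did, an alternative chosen after seeing the data). The number related to Tnnt2 was 6, then 3 without the 2 hearts farthest on the log2 scale, 5 without the 2 farthest in CPM, 2 without TG trained male replicate 4, 1 in nTG hearts, where Fhl1 was at 0.29, and 0 in female TG hearts, where Ankrd23 (0.0524), Xirp2 (0.0253) and Synpo2l (0.23) changed sign. The share of 13396 genes with an r at least as large in size as the weakest that passed was 10.3%, 2.69%, 6.4%, 2.65% and 3.85% in the first 5 of these, and in females 11.7% reached the size of the strongest, Fhl1. These settings, other than leaving out the 2 hearts farthest on the log2 scale, were chosen after seeing the data. Leaving out each library gave 5 to 6 genes in sedentary males (16.4% to 22.4% of all genes), 2 to 5 in trained males (10.4% to 15.2%), 1 to 4 in sedentary females (3.09% to 5.78%), 2 to 5 in trained females (11.4% to 16.6%), 9 to 9 in the mean (37.2% to 40%), 0 to 4 in TG males by training (10.1% to 24%) and 0 elsewhere (0% to 5.35%). The cause of these shifts was not tested. Replicate numbers did not pair hearts (median correlation 0.01 over 205 same-numbered pairs); the replicate block left 139 of 140 values on the same side, and Xirp1 in trained females lost its call (-0.17, adjusted p = 0.0522). Median-of-ratios scaling and leaving out mitochondrial genes changed no call of 140, and DESeq2 kept 139; testing without a filter was the same fit, since the filter removed no gene. At these depths the spread between hearts limits the tests, not counting.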
